A study of Mus musculus with 12 samples.

Results

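Livers of chow-fed and fat-fed mice were compared by RNA sequencing in 6 of the 12 libraries of the series, 3 per diet. All mice were C57BL/6N, an inbred laboratory strain with no engineered allele named in the labels. The chow group (NCD) ate a normal diet and the high-fat group (HFD) a diet that supplied 60% of its energy as fat, each over 12 weeks. The other 6 libraries came from mice on the same high-fat diet that also received compound C1 or C2 into the peritoneum at 5 mg/kg per day, and they serve below only for levels set beside those of the diet groups. The labels call the replicates of a group biological. Sex, age, fasting state, hour of collection and any vehicle injection of the NCD and HFD mice are not given in the sources used here. The members were chosen by their labels alone, as the NCD and HFD libraries of 1 count table. All genes of that table with enough reads were tested, and the account centres on genes whose diet difference was called with every library present and again with each of the 6 left out in turn.

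The liver takes up fatty acids from the blood, burns them in mitochondria and peroxisomes, and stores the excess as triglyceride in lipid droplets. Proteins of the CIDE and perilipin families coat these droplets and govern their fusion and breakdown, and the nuclear receptor PPARG switches many of them on in a fatty liver. Cholesterol synthesis is under feedback: the transcription factor SREBP2 drives the enzymes of the pathway when sterols run low and is held inactive when they are plentiful, while conversion to bile acids starts with the enzyme CYP7A1. Mouse liver also has a large set of genes that differ by sex, set by the pulses of growth hormone.

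The 6 libraries were not of equal depth or quality. Reads counted in genes ran from 4281210 to 23147418 in NCD and from 25198905 to 32124248 in HFD, so a gene with 3 reads, taken as the floor, stood at 0.701 CPM (counts scaled to all gene reads of a library) in NCD replicate 2 and at 0.0934 CPM in HFD replicate 1. Such floors cover counting error only, since reads without molecular identifiers are not independent molecules. NCD replicate 1 stood apart: 23.2% of its reads fell outside annotated features, against 8.58% and 10.4% in the other NCD libraries and 4.92% to 6.84% in HFD. Its log2 CPM correlated across genes at 0.873 and 0.904 with the other NCD libraries, whereas those correlated at 0.962 with each other and the HFD pairs at 0.985 to 0.991. The 8 hepatocyte markers (albumin, transthyretin and others) summed to 40800 CPM in NCD replicate 1, 86900 and 87700 CPM in the other NCD libraries and 91800 to 113000 CPM in HFD, which fits the labelled tissue in all 6. NCD replicate 3 held 129 CPM of skeletal muscle markers, where the other 5 libraries held 0.357 to 2.64 CPM. In whole tissue, fewer cells of a type and less RNA per cell cannot be told apart.

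Of 50559 genes listed, 13864 had a mean of at least 10 reads over the 6 libraries and were tested. The quasi-likelihood test of edgeR called 836 of them at a Benjamini-Hochberg adjusted p under 0.05 (6.03% of genes tested), 359 higher (2.59%) and 477 lower (3.44%) in HFD. With only genes of at least 50 mean reads, 54.6% of the calls were higher, with limma 60.4% and with libraries thinned to the shallowest 54.3%, against 42.9% here. The median log2 change of all tested genes was -0.02, and that of absolute changes among called genes was 1.82. The groups did not overlap in 826 of the 836 called genes, as was also the case for 37.2% of all genes tested. Which library was left out set the number of calls: 2163 without NCD replicate 1, 1268 without NCD replicate 2, 591 without NCD replicate 3, then 29, 137 and 37 when the library left out was HFD replicate 1, 2 or 3. The gene-wise spread, as the biological coefficient of variation, was 0.298 with all libraries, 0.159 without NCD replicate 1 and 0.334 to 0.346 without an HFD library.

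**Figure D1:**
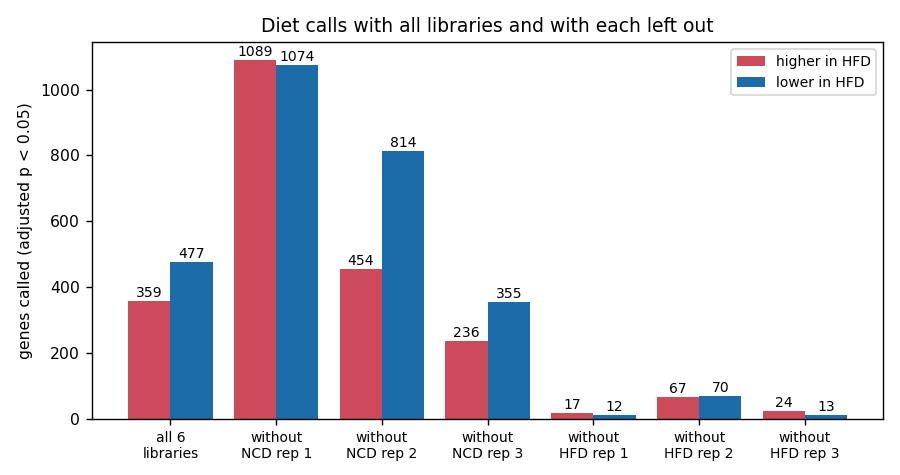
Number of genes called higher (red bars) and lower (blue bars) in HFD at an edgeR adjusted p under 0.05, with all 6 libraries and with each library left out. The bars run from 17 higher and 12 lower without HFD replicate 1 to 1089 higher and 1074 lower without NCD replicate 1.

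The called genes kept their direction in each of these fits, 836 of 836, and for 543 of them no fit moved the log2 change by 0.5 or more. For 206 genes at least 1 fit moved it by over 1. The calls themselves were less steady: 27 genes were called in all 7 fits, which is 0.195% of genes tested, 17 of them higher (0.123%) and 10 lower (0.0721%). At the edge of this group the largest adjusted p over the 7 fits was 0.0491, and the 10 genes that missed it in 1 fit had 0.0522 to 0.0958 there. Those 10 were Upp2, Fdps, Dsg1c, Tubb6, ND4, Asns, Inhbe, Cyp2b9, Gm46110 and LOC118568041. Absolute log2 changes of the 27 ran from 1.70 to 8.08 with a median of 2.78. A called gene outside the 27 was not called without HFD replicate 1, except for Asns and LOC118567332, and not without HFD replicate 3, except for 9 of the 10 genes above (all but Asns) and ATP8. That limit applies to each gene described below that is not among the 27. Counts over gene lists without NCD replicate 1, given below, stand beside 1089 genes higher and 1074 lower of the 13864 in the same fit.

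Genes of fat storage were among the largest rises of the 27. Cidea, which encodes a droplet protein that is normally abundant in brown fat and promotes droplet fusion, was at 0.265, 0.662 and 0.0848 CPM in NCD and 77.3, 30.5 and 71.8 CPM in HFD. Every HFD liver was far above every NCD liver, and HFD replicate 2 was the lowest of its group. The NCD libraries held only 3, 3 and 2 reads of Cidea, so its fitted log2 change of 8.08 ± 0.62 (standard error, edgeR adjusted p = 0.00174) depends on how low counts are treated and was 7.25 without NCD replicate 3. The ratio of pooled counts was 257, with a 95% counting interval of 130.0 to 596.

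Cidec, the related CIDE protein of large droplets, was at 1.77, 5.29 and 1.99 CPM in NCD and 77.0, 34.0 and 68.3 CPM in HFD, a log2 change of 4.50 ± 0.48 (edgeR adjusted p = 0.00431). The perilipin Plin4 was at 0.354, 1.76 and 0.806 CPM in NCD and 24.4, 12.1 and 17.9 CPM in HFD. Both sets of livers were separate for each gene, with NCD replicate 2 the highest chow library and HFD replicate 2 the lowest fat-fed one. Cfd, the serine protease adipsin of the complement system that fat cells secrete, was at 0.354, 0.441 and 0.678 CPM in NCD and 25.7, 20.9 and 22.1 CPM in HFD. Its log2 change of 5.40 ± 0.29 had the smallest p of all rises (edgeR adjusted p = 0.000441), and its NCD counts were 4, 2 and 16 reads.

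Cd36, a membrane protein that takes up long-chain fatty acids, was at 25.7, 36.2 and 28.3 CPM in NCD and 134, 104 and 136 CPM in HFD. Fabp2, the fatty acid-binding protein best known from the intestine, was at 77.7, 93.8 and 96.5 CPM in NCD and 400.2, 281 and 422 CPM in HFD. In both, the lowest HFD liver exceeded the highest NCD liver, by 2.88-fold for Cd36 and 2.91-fold for Fabp2. Their log2 changes were 2.06 ± 0.21 and 2.04 ± 0.22 (edgeR adjusted p = 0.00431 for both). Mfsd2a, a transporter of lysophosphatidylcholine, was at 7.34, 4.85 and 3.65 CPM in NCD and 72.7, 48.6 and 65.6 CPM in HFD (log2 change 3.57, edgeR adjusted p = 0.0024). Abcd2, which carries very long fatty acids into peroxisomes, was at 3.27, 2.43 and 3.31 CPM in NCD and 18.7, 12.7 and 20.6 CPM in HFD. Apoa4, an apolipoprotein of triglyceride-rich particles, was at 72.7, 199.9 and 137 CPM in NCD and 5566, 2012 and 5058 CPM in HFD (log2 change 4.95 ± 0.53, edgeR adjusted p = 0.00431). It had the highest mean level of the 27 genes, 2170.0 CPM over the 6 libraries, and HFD replicate 2 was again the lowest HFD liver. On the list of 17 apolipoproteins and lipoprotein genes, Apoa4 was the only one called higher, 1 was called lower and 15 were not called (11.8% called, beside 6.03% of all genes tested), with a median log2 change of 0.23. The one called lower was Apom, an apolipoprotein of HDL, at 211, 251 and 294 CPM in NCD and 148, 144 and 152 CPM in HFD (log2 change -0.77 ± 0.18, edgeR adjusted p = 0.0477), and of the 6 fits that left out a library only that without NCD replicate 1 called it.

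The remaining 8 genes that rose in all 7 fits had mixed roles. Cyp2b13, a cytochrome P450 usually higher in females, was at 0.0884, 0.882 and 0.806 CPM in NCD and 19.4, 18.1 and 18.0 CPM in HFD, from NCD counts of 1, 4 and 19 reads. Its HFD levels were nearly equal, and its log2 change of 4.97 became 5.77 without NCD replicate 3. Hamp2, a paralog of the iron hormone hepcidin, was at 17.4, 22.9 and 19.97 CPM in NCD and 98.9, 91.2 and 85.6 CPM in HFD (log2 change 2.20 ± 0.18, edgeR adjusted p = 0.0021). Anxa2, a calcium-dependent membrane-binding annexin, was at 20.6, 23.8 and 16.8 CPM in NCD and 143, 79.2 and 132 CPM in HFD, with HFD replicate 2 well under the other fat-fed livers. Ifi27l2b, a gene of the interferon-inducible Ifi27 family, was at 3.01, 3.31 and 1.61 CPM in NCD and 62.4, 25.7 and 54.1 CPM in HFD, and showed the same low HFD replicate 2. Wfdc2, a secreted protein with a whey acidic protein domain, was at 6.81, 6.62 and 6.998 CPM in NCD and 43.2, 24.8 and 40.3 CPM in HFD, and its 3 chow livers were almost identical. Tceal8 was at 10.7, 8.38 and 11.4 CPM in NCD and 80.2, 52.7 and 94.6 CPM in HFD. The transcripts named 1810055G02Rik and 2010003K11Rik, both listed as protein coding, had log2 changes of 2.85 and 3.74. The former was at 3.71, 4.63 and 7.80 CPM in NCD and 45.5, 39.0 and 35.9 CPM in HFD, the latter at 2.65, 3.75 and 5.47 CPM in NCD and 73.9, 25.6 and 64.8 CPM in HFD, and neither overlapped between diets.

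HFD replicate 2 was the lowest of the HFD libraries in 14 of these 17 rising genes. Among all genes called higher the share was 54.9%, and among all genes tested 38.0%. In the 10 genes that fell in all 7 fits it was the highest HFD library in 3, against 47.2% of all genes called lower and 38.5% of all genes tested.

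**Figure D2:**
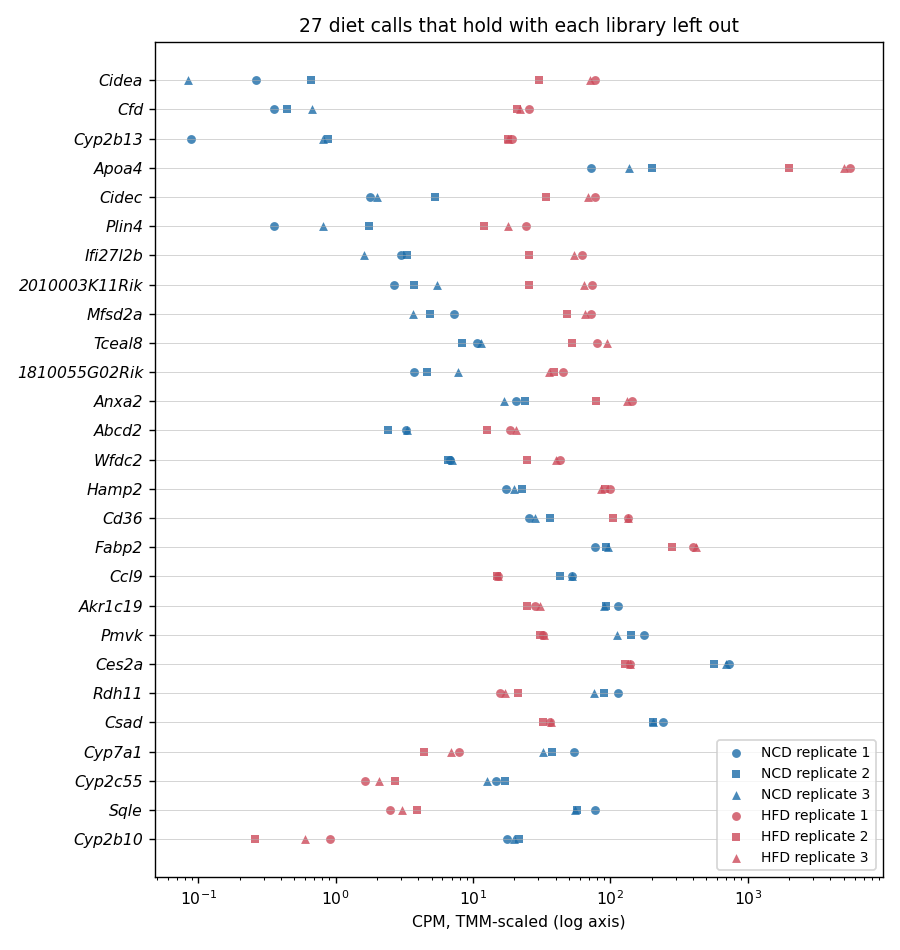
TMM-scaled CPM on a log axis for the 27 genes called in all 7 fits, with 1 symbol per library (blue NCD, red HFD; circle, square and triangle for replicates 1, 2 and 3). In each row the 3 blue and the 3 red symbols are separate, and the red square (HFD replicate 2) lies lowest of the red symbols in 14 of the 17 rising genes.

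**Figure D3:**
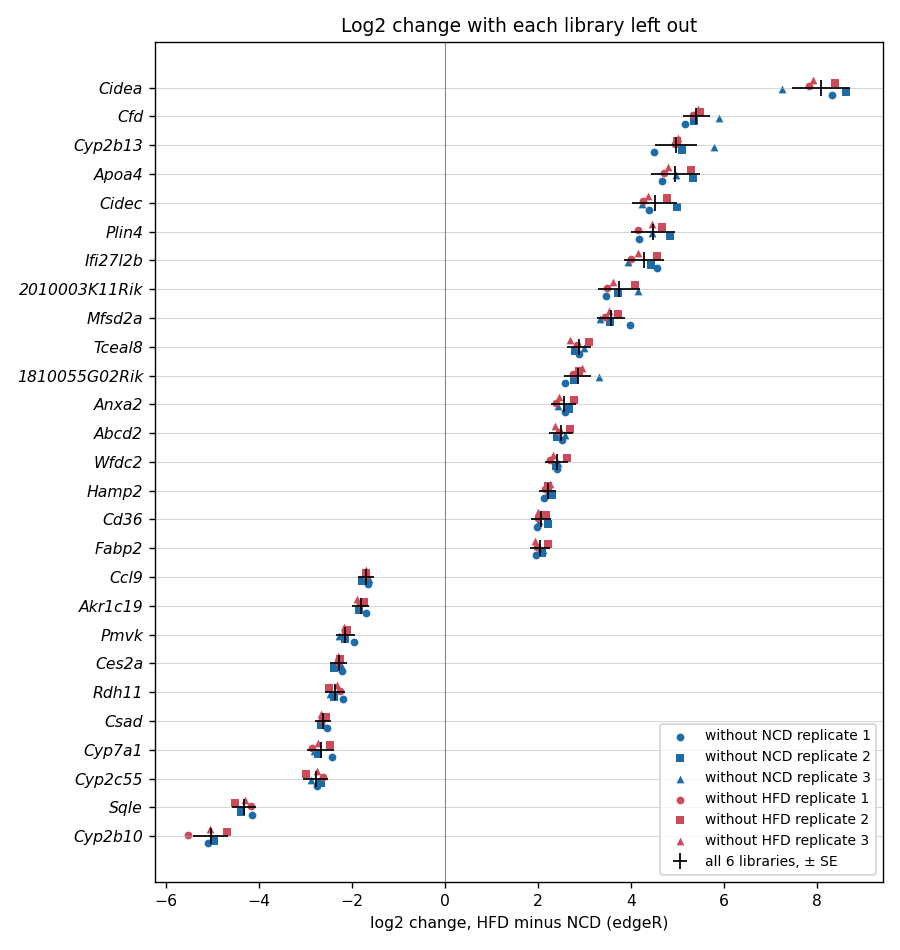
Log2 change (HFD minus NCD) of the same 27 genes with all 6 libraries (black, ± standard error) and with each library left out (coloured symbols). The largest move is 0.83, for Cidea without NCD replicate 3, and no symbol crosses 0.

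Among the 10 genes that fell in all 7 fits, an enzyme of sterol synthesis had the smallest p. Sqle, the squalene epoxidase that carries out a rate-limiting oxidation of the pathway, was at 77.6, 57.1 and 55.0 CPM in NCD and 2.48, 3.93 and 3.04 CPM in HFD. The lowest chow liver was 14.0-fold above the highest fat-fed one, and the log2 change was -4.33 ± 0.26 (edgeR adjusted p = 0.000492), the smallest of all falls. Pmvk, the phosphomevalonate kinase of the same pathway, was at 176, 140.5 and 112 CPM in NCD and 32.6, 30.8 and 32.9 CPM in HFD (log2 change -2.15, edgeR adjusted p = 0.00395). The HFD livers were tight, and NCD replicate 1 was the highest. Rdh11, a retinal reductase, was at 113, 90.5 and 76.8 CPM in NCD and 15.7, 21.4 and 17.3 CPM in HFD. Cyp7a1, the rate-limiting enzyme of bile acid synthesis from cholesterol, was at 54.1, 38.0 and 32.2 CPM in NCD and 7.96, 4.41 and 6.98 CPM in HFD, a log2 change of -2.68 ± 0.29 (edgeR adjusted p = 0.00478). Its HFD replicate 2 was the lowest liver of all.

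Csad, which makes the taurine precursor hypotaurine, was at 243, 206 and 205 CPM in NCD and 36.4, 32.3 and 37.3 CPM in HFD. The groups were 5.50-fold apart at their nearest points, and the log2 change was -2.63 ± 0.18 (edgeR adjusted p = 0.000969). Cyp2b10, the standard target of the nuclear receptor CAR, was at 17.8, 21.6 and 20.02 CPM in NCD and 0.907, 0.259 and 0.600 CPM in HFD (log2 change -5.05 ± 0.38, edgeR adjusted p = 0.00174). It rested on 26, 7 and 14 reads in HFD, and the log2 change ran from -5.73 with libraries thinned to the shallowest to -3.73 with limma on log2(CPM + 1). Its fall was in the opposite direction from that of its paralog Cyp2b13. Cyp2c55 was at 14.7, 17.2 and 12.6 CPM in NCD and 1.64, 2.71 and 2.06 CPM in HFD, and the carboxylesterase Ces2a at 729, 569 and 695 CPM in NCD and 138, 128 and 140.0 CPM in HFD. Ces2a had log2 change -2.29 ± 0.19 (edgeR adjusted p = 0.0021), and its groups were 4.07-fold apart at their nearest points. Akr1c19, an aldo-keto reductase, was at 114, 92.9 and 89.3 CPM in NCD and 28.4, 24.9 and 30.8 CPM in HFD. Ccl9, a chemokine that attracts myeloid cells, was at 52.7, 43.2 and 52.4 CPM in NCD and 15.3, 15.1 and 15.3 CPM in HFD, the smallest change of the 27 at -1.70 ± 0.17 (edgeR adjusted p = 0.00431). Its HFD values were nearly the same in the 3 livers. Of 12 markers of Kupffer cells and macrophages, 0 were called by edgeR (4 at an unadjusted p under 0.05) and 1 by DESeq2, where edgeR called 6.03% of all genes tested, a share at which 0 of 12 says little. Their sums of 275 to 422 CPM in NCD and 225 to 321 CPM in HFD overlapped.

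In 8 of these 10 falling genes NCD replicate 1 was the highest chow library. That they were also called without it follows from how they were chosen. The Cyp2b and Cyp2c genes, Hamp2 and, below, Mup3, Mup20 and Cyp3a11 have paralogs of similar sequence. How the authors' counting divided reads between them is not given in the sources used here, so their levels are less certain than those of single-copy genes. Other genes of the 27 also moved by over 1.5-fold with the setting. Over 10 other settings the log2 change ran from 5.42 to 8.24 for Cidea, 4.0 to 5.57 for Cfd and 3.66 to 5.13 for Cyp2b13. It ran from 3.67 to 4.45 for Ifi27l2b and 3.29 to 4.62 for Plin4. These genes had at most 38 reads in an NCD library, and their change was lowest each time with limma on log2(CPM + 1). Cidec, with 20, 24 and 47 NCD reads, ran from 3.94 to 4.66. Sqle, with 877, 259 and 1297 NCD reads, ran from -4.59 to -3.95.

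Cholesterol synthesis as a whole was followed through a list of 21 enzymes, from acetyl-CoA to cholesterol. Of these, 13 fell, 0 rose and 8 were not called (61.9% called, beside 6.03% of all genes tested), and 20 of 21 had log2 changes below 0, with a median of -1.56 beside -0.02 for all genes tested. The 13 included Sqle, Msmo1, Cyp51, Tm7sf2, Idi1, Fdps, Pmvk, Hmgcs1, Fdft1, Hsd17b7, Mvk and Dhcr7, which span the pathway from HMG-CoA synthase to the last reductase. Leaving out a library gave 19, 13 and 9 calls lower without NCD replicates 1, 2 and 3, and 2, 9 and 3 without HFD replicates 1, 2 and 3, with 0 higher each time and medians between -1.68 and -1.37. Fdps, which makes farnesyl diphosphate, was at 809, 490.0 and 520.5 CPM in NCD and 113, 131 and 120.0 CPM in HFD (log2 change -2.32 ± 0.24, edgeR adjusted p = 0.00431). Its diet groups were 3.73-fold apart at their nearest points. Msmo1, the sterol C4-demethylating oxidase, was at 691, 235 and 271 CPM in NCD and 23.5, 48.4 and 29.9 CPM in HFD. NCD replicate 1 was by far the highest there, and the log2 change of -3.56 was -2.90 without it. Among members not called, Ebp had a log2 change of -1.08 (edgeR adjusted p = 0.0578) and Sc5d one of -0.61 (edgeR adjusted p = 0.0696).

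Promoters of this pathway are shown because 13 of its genes fell together. RefSeq starts on GRCm38.p6, the build of mm10, matched 16 of the 21 genes and 9 of the 13 that fell; 250 bases before each start were searched on both strands. The CCAAT box (CCAAT, or ATTGG on the reverse strand), the letters bound by NF-Y, which works with SREBP2, was present in 15 of the 16 (93.8%), and in all 9 matched genes that fell, compared with 40.5% of the 10341 tested genes with a window. The sterol element TCACNCCAC was in 1 of the 16, Hmgcs1, compared with 1.32% of tested genes. The 2 motifs can overlap in their shared letters but did not in the stretches printed. Stretches of 4 genes that fell are given 5′ to 3′ on the gene's strand, with each match in capitals: Hmgcs1 (chr13:119690209-119690350, plus strand), Idi1 (chr13:8885516-8885605, plus strand) and Cyp51 (chr5:4104698-4104787, minus strand), all ending at the base before the start; and Msmo1 (chr8:64733589-64733678, minus strand), which ends 11 bases before it.
Hmgcs1: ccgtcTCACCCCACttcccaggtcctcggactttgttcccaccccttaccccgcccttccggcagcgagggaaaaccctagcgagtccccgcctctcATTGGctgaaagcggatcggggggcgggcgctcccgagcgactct
Idi1: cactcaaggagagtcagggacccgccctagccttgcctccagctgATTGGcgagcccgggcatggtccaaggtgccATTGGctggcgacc
Cyp51: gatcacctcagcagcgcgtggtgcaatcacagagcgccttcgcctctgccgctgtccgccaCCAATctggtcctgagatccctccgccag
Msmo1: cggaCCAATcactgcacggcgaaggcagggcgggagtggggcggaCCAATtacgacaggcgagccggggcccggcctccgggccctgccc
The Hmgcs1 stretch has the sterol element (TCACCCCAC) near its 5′ end and an ATTGG nearer the gene, while Idi1 has a pair of ATTGG matches, Cyp51 a single CCAAT and Msmo1 a pair of CCAAT matches. A match describes letters in a window, not binding.

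Genes of sterol uptake and its control went in both directions. Among 14 tested, 3 fell and 2 rose (35.7% called, beside 6.03% of all genes tested). Insig1, an anchor of SREBP that is itself an SREBP target, was at 589, 241 and 311 CPM in NCD and 126, 152 and 152 CPM in HFD (log2 change -1.41, edgeR adjusted p = 0.0452), with NCD replicate 1 far above the other chow livers. Stard4 also fell. Abcg5, a subunit of the sterol exporter into bile, was at 13.4, 19.2 and 22.1 CPM in NCD and 43.7, 54.4 and 43.4 CPM in HFD, a rise (log2 change 1.37, edgeR adjusted p = 0.0235). Mylip, a sterol-regulated ubiquitin ligase, rose by a log2 change of 1.39.

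Of the 28 tested genes of triglyceride storage and droplets, 9 rose and 0 fell (32.1% called, beside 6.03% of all genes tested), with a median log2 change of 0.85. Beside the 6 already described (Cidea, Cfd, Cidec, Plin4, Cd36 and Fabp2), Mogat1, an acyltransferase of triglyceride synthesis, Fitm1, a droplet-forming membrane protein, and Pparg rose. Leaving out NCD replicate 1 gave 14 calls higher, and leaving out another library gave 6 to 9. Plin2, the main droplet coat of hepatocytes, was at 431, 656 and 492 CPM in NCD and 883, 728 and 857 CPM in HFD and was not called (log2 change 0.64, edgeR adjusted p = 0.0985). Of 8 markers of fat cells, Cfd and Car3 had enough reads to be tested, and Cfd was called. Car3, a carbonic anhydrase that was also abundant in these livers, was at 1792, 2935 and 3096 CPM in NCD and 2960.0, 3336 and 3301 CPM in HFD and was not called (edgeR adjusted p = 0.452). In HFD the defining markers were at or near 0: Lep had no read, Adipoq had 1 read in replicate 3 and Plin1 had 1 read in replicate 1, with no read in the other HFD libraries. DESeq2 called 1 storage gene lower, beside 13 higher.

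Fatty acid synthesis did not move one way. Of 17 genes tested 2 rose, 3 fell and 12 were not called (29.4% called, beside 6.03% of all genes tested). The median log2 change was -0.61 beside -0.02 for all genes tested, with 8 genes above 0 and 9 below. At an unadjusted edgeR p under 0.05 there were 14, and DESeq2 called 3 higher and 7 lower. Fads2, a desaturase of polyunsaturated fatty acids, was at 193, 277 and 226 CPM in NCD and 409, 411 and 383 CPM in HFD, a rise (log2 change 0.79, edgeR adjusted p = 0.0486), and Elovl5, an elongase, rose too. Mlxipl, the carbohydrate-responsive factor ChREBP, was at 124, 96.2 and 93.9 CPM in NCD and 61.1, 61.9 and 63.5 CPM in HFD, a fall (log2 change -0.75, edgeR adjusted p = 0.046). The sterol-linked Tmem97 and Insig1 made up the rest of the falls. Scd1, the stearoyl-CoA desaturase, was at 5452, 6179 and 4011 CPM in NCD and 6494, 3757 and 7098 CPM in HFD and was not called (log2 change 0.15). Thrsp was not called either (log2 change -0.61, edgeR adjusted p = 0.169).

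Of 30 genes of fatty acid oxidation and ketone production, 5 rose (Vnn1, Cpt1a, Bdh1 and Ppara among them), 1 fell and 24 were not called, where 6.03% of all genes tested were called, with a median log2 change of 0.31 beside -0.02 for all. Cpt1a, the carnitine palmitoyltransferase that admits fatty acids to mitochondria, was at 28.0, 91.1 and 84.3 CPM in NCD and 241, 265 and 222 CPM in HFD (log2 change 1.84, edgeR adjusted p = 0.0399), with NCD replicate 1 far below the other chow livers. Vnn1, a pantetheinase that responds to PPARA, was at 11.2, 36.0 and 27.2 CPM in NCD and 92.3, 93.5 and 101 CPM in HFD. Bdh1, which makes the ketone beta-hydroxybutyrate, was at 109.7, 235 and 276 CPM in NCD and 647, 496 and 589 CPM in HFD. In both genes NCD replicate 1 was again the lowest library. Pdk4, the kinase that shuts off pyruvate dehydrogenase, was at 39.7, 24.7 and 32.1 CPM in NCD and 9.39, 6.82 and 10.4 CPM in HFD, a fall (log2 change -1.86 ± 0.25, edgeR adjusted p = 0.00994). Of 26 nuclear-encoded genes of oxidative phosphorylation, edgeR called 0 (4 at an unadjusted p under 0.05) and DESeq2 called 2.

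Bile acid genes had 4 falls and 1 rise among 18 tested (27.8% called, beside 6.03% of all genes tested). Cyp7b1, of the alternative synthesis route, was at 362, 267 and 349 CPM in NCD and 69.0, 141 and 77.5 CPM in HFD (log2 change -1.77, edgeR adjusted p = 0.0238), and Cyp2c70, which makes the muricholic acids of mice, was at 414, 415 and 426 CPM in NCD and 127, 218 and 138 CPM in HFD (log2 change -1.38, edgeR adjusted p = 0.0245). For both, HFD replicate 2 lay between the chow livers and the other HFD livers. Slc27a5, which activates bile acids for conjugation, fell as well, so that with Cyp7a1 the 4 falls were all of synthesis or conjugation. Abcb4, the phospholipid exporter into bile, was at 53.3, 136 and 139 CPM in NCD and 422, 308 and 377 CPM in HFD, a rise (log2 change 1.75, edgeR adjusted p = 0.036). Abcb11, the bile salt export pump, was at 553, 543 and 565 CPM in NCD and 394, 416 and 444 CPM in HFD and was not called (log2 change -0.41).

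Among 25 genes of xenobiotic metabolism 3 rose, 6 fell and 16 were not called (36.0% called, beside 6.03% of all genes tested). The falls were Cyp2b10, Cyp2c55, Cyp3a11, Cyp2a5, Cyp3a13 and Por, the reductase that supplies electrons to P450 enzymes. Cyp2c38 was at 10.4, 23.2 and 21.6 CPM in NCD and 96.0, 54.2 and 104 CPM in HFD, a rise (log2 change 2.21, edgeR adjusted p = 0.0212), as were Cyp2c39 and Cyp2a22. Cyp2c29, an abundant member, was at 779, 2786 and 2280.0 CPM in NCD and 644, 1021 and 683 CPM in HFD and was not called with all 6 libraries (edgeR adjusted p = 0.0952). NCD replicate 1 was as low as the HFD livers for that gene, and without it 12 genes of the list were called lower and 5 higher, in a fit that called 2163 of all 13864 genes. Of 26 glutathione and antioxidant genes, 2 rose and 3 fell (19.2% called, again beside 6.03%). Gpx1, a glutathione peroxidase, was at 1597, 2692 and 3250.0 CPM in NCD and 7778, 5374 and 6788 CPM in HFD, a rise (log2 change 1.40), and Nfe2l2, the factor NRF2, rose by 1.12. The falls were of glutathione S-transferases. Gstt3 was at 133, 86.0 and 99.2 CPM in NCD and 52.1, 49.3 and 50.4 CPM in HFD (log2 change -1.07, edgeR adjusted p = 0.0305), with the diets apart. Gstm6 had a log2 change of -0.79 (edgeR adjusted p = 0.0355) and Gsta4 one of -0.87 (edgeR adjusted p = 0.0477).

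Secreted liver factors included 4 rises and 2 falls among 20, where 6.03% of all genes tested were called. Inhbe, the inhibin beta-E subunit, was at 16.6, 31.3 and 24.1 CPM in NCD and 98.3, 97.9 and 98.2 CPM in HFD (log2 change 2.04 ± 0.24, edgeR adjusted p = 0.00665), with HFD livers almost equal. Selenop, the selenium carrier of plasma, was at 1211, 1495 and 1592 CPM in NCD and 4114, 4092 and 3544 CPM in HFD (log2 change 1.45, edgeR adjusted p = 0.0133), and Angptl8 rose too. Igfbp2, a binding protein of insulin-like growth factors, was at 383, 475 and 613 CPM in NCD and 154, 144 and 148 CPM in HFD, a fall (log2 change -1.72 ± 0.21, edgeR adjusted p = 0.00781). Enho also fell.

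Glucose genes had 3 rises (Pcx, Slc2a2 and Gbe1) and 1 fall among 22 (18.2% called, beside 6.03% of all genes tested). The rises numbered 0 with a replicate block or thinned libraries, 1 with limma or robust dispersions and 8 with DESeq2. Slc2a2, the glucose transporter GLUT2, was at 74.4, 84.3 and 84.8 CPM in NCD and 133, 153 and 127 CPM in HFD (log2 change 0.76, edgeR adjusted p = 0.0419). Ppp1r3c, a glycogen-targeting subunit of protein phosphatase, was at 386, 143 and 194 CPM in NCD and 69.8, 82.8 and 77.0 CPM in HFD, a fall (log2 change -1.66, edgeR adjusted p = 0.0385), with NCD replicate 1 far above the other chow livers. Among 27 genes of the urea cycle and amino acid breakdown, edgeR called 0 (9 at an unadjusted p under 0.05), as it did among 21 pericentral and periportal markers (8 at an unadjusted p under 0.05). DESeq2 called 3 higher and 2 lower in each of these lists.

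Acute phase genes had 5 rises and 0 falls among 22 (22.7% called, beside 6.03% of all genes tested), with a median log2 change of 0.67 beside -0.02 for all. Lcn2, the iron-scavenging lipocalin, was at 0.708, 0.882 and 2.59 CPM in NCD and 29.5, 12.5 and 22.9 CPM in HFD (log2 change 3.75, edgeR adjusted p = 0.0106), or 4.82 without NCD replicate 3, whose level was the highest of the chow livers. Serpina3n was at 36.2, 122 and 129 CPM in NCD and 337, 311 and 293 CPM in HFD, a rise of 1.71. Leaving out NCD replicate 1 gave 10 rises, leaving out another library 0 to 3. Of 23 matrix genes 3 rose: Col1a1, the main fibrillar collagen, at 1.42, 0.882 and 0.806 CPM in NCD and 7.15, 5.26 and 6.21 CPM in HFD (log2 change 2.58, edgeR adjusted p = 0.00927), with Col3a1 and the fibronectin gene Fn1. Of 8 stellate cell markers 0 were called by edgeR or DESeq2 (2 at an unadjusted edgeR p under 0.05). With 6.03% of all genes tested called by edgeR, 0 of 8 says little. The markers summed to 110.0 to 134 CPM in NCD and 108 to 135 CPM in HFD. Of 19 inflammation genes 2 rose, Cxcl9 and Il1rn (10.5% called), and of 22 interferon genes Ifit3 rose and Ifi47 fell (9.09% called). Among 19 cell cycle genes, Mki67, Cdkn1a and Ccnd1 rose (15.8% called). Cdkn1a, the cyclin-dependent kinase inhibitor p21, was at 5.84, 4.41 and 4.37 CPM in NCD and 17.6, 10.8 and 16.5 CPM in HFD (log2 change 1.61, edgeR adjusted p = 0.0221).

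Of 22 genes of the unfolded protein response 2 rose and 1 fell (13.6% called), of 16 immediate early genes 2 fell (12.5%) and of 19 clock genes 2 rose (10.5%), beside 6.03% of all genes tested. Asns, the asparagine synthetase induced by amino acid shortage, was at 15.2, 5.29 and 8.91 CPM in NCD and 0.838, 0.407 and 0.471 CPM in HFD, a fall of -4.10 ± 0.47 on the log2 scale (edgeR adjusted p = 0.00618) whose call was lost only without HFD replicate 3. Chac1 and Ddit3, of the same stress response list, rose. The rises of that list numbered 0 with limma, a replicate block or thinned libraries and 5 with DESeq2. Egr1, an immediate early factor, was at 7.87, 9.93 and 16.9 CPM in NCD and 2.27, 1.78 and 1.71 CPM in HFD, a fall (log2 change -2.60, edgeR adjusted p = 0.00927). Dbp, an output gene of the clock with a steep daily rhythm, had 1, 0 and 2 reads in NCD and was at 3.73, 1.33 and 2.74 CPM in HFD. Its pooled count ratio was 30.1, with a 95% counting interval of 10.2 to 147. Bhlhe40, a clock repressor, was at 18.7, 22.9 and 21.1 CPM in NCD and 49.7, 63.8 and 46.6 CPM in HFD, a rise (log2 change 1.36, edgeR adjusted p = 0.0132). The hour at which livers were taken is not given, so diet and hour cannot be told apart for these genes.

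Sex-biased genes changed in a way that differed among the HFD livers. Of 23 tested genes that are usually higher in males, 7 fell and 0 rose (30.4% called, beside 6.03% of all genes tested), and 21 had log2 changes below 0, with a median of -1.43. Selenbp2, a selenium-binding protein, was at 441, 262 and 254 CPM in NCD and 15.5, 54.2 and 15.8 CPM in HFD (log2 change -3.48, edgeR adjusted p = 0.0177), and Elovl3, a fatty acid elongase, at 1015, 1008 and 983 CPM in NCD and 263, 441 and 273 CPM in HFD (log2 change -1.62, edgeR adjusted p = 0.0163). HFD replicate 2 was well above the other 2 HFD livers for Selenbp2, which had a log2 change of -4.35 without it. Over the list, HFD replicate 2 was the highest HFD library in 22 of 23 genes, against 38.5% of all genes tested. It was more than 2-fold above both others in 13, against 1.48% of all genes tested. Without it, 15 of the 23 were called lower and the median was -2.07, and without HFD replicate 1 or 3 edgeR called 0 (10 at an unadjusted p under 0.05 each time), with medians of -1.13 and -1.12 and smallest adjusted p of 0.0958 and 0.0864. The most abundant members that were not called were 2 major urinary protein genes. Mup3 was at 8285, 11260.0 and 11370.0 CPM in NCD and 7504, 11960.0 and 8178 CPM in HFD (log2 change -0.16, edgeR adjusted p = 0.71), and Mup20 was at 2812, 2709 and 2754 CPM in NCD and 2422, 3239 and 2804 CPM in HFD (log2 change 0.03, edgeR adjusted p = 0.931). The diets overlapped in both. Hsd3b5 and Cyp4a12a were picked after their values were seen as uncalled members with this spread. Hsd3b5, a steroid dehydrogenase, was at 173, 305 and 302 CPM in NCD and 15.6, 223 and 14.3 CPM in HFD (edgeR adjusted p = 0.287), and Cyp4a12a, a fatty acid hydroxylase, at 146, 258 and 181 CPM in NCD and 49.4, 142 and 48.5 CPM in HFD (edgeR adjusted p = 0.103). In each, HFD replicate 2 was at or near the chow range and the other HFD livers were far below it.

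**Figure D4:**
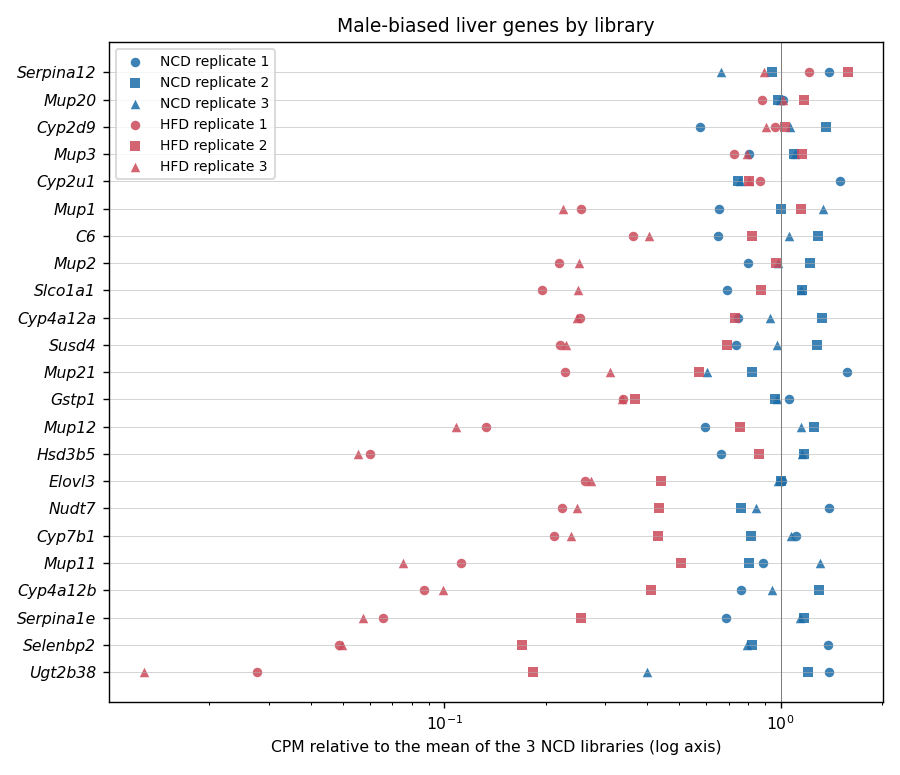
CPM of 23 male-biased genes in each library, divided by the mean of the 3 NCD libraries and drawn on a log axis (blue NCD, red HFD; circle, square and triangle for replicates 1, 2 and 3). HFD replicate 2 is the highest of the red symbols in 22 of the 23 rows.

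Of 16 tested genes usually higher in females, 4 rose (Cyp2b13, Cyp2b9, Slc22a27 and Hao2) and 2 fell (Cyp2c40 and Cyp2c69), or 37.5% called beside 6.03% of all genes tested. Cyp2b9 was at 5.22, 16.1 and 20.4 CPM in NCD and 234, 150.0 and 227 CPM in HFD (log2 change 3.87 ± 0.47, edgeR adjusted p = 0.00718). Slc22a27, an organic anion transporter, was at 0.531, 0.662 and 1.19 CPM in NCD and 10.6, 4.08 and 11.3 CPM in HFD, with a log2 change of 3.31 that became 3.90 without NCD replicate 3. HFD replicate 2 was the lowest HFD library in 13 of the 16 genes, against 38.0% of all genes tested. Cyp2c40 was at 15.2, 3.09 and 4.03 CPM in NCD and 0.314, 0.556 and 0.728 CPM in HFD, a fall (log2 change -3.83, and -2.80 without NCD replicate 1, the highest chow library). Among 15 genes of growth hormone signalling, 0 were called by edgeR (5 at an unadjusted p under 0.05) and DESeq2 called 2 higher and 2 lower. All 6 libraries held reads of Y-linked genes: Ddx3y had 236 to 972 reads and Eif2s3y 211 to 1453, against 0 to 30 reads of Xist, the RNA of the inactive X. HFD replicate 2 had 972 reads of Ddx3y and 4 of Xist, so these genes placed it with the other livers.

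RNA encoded by the mitochondrial genome and RNA that stays in the nucleus also separated the diets. Of the 13 mitochondrial protein-coding genes, 7 rose (ND1, ND2, ND4, ND5, COX1, ATP8 and CYTB) and ND3 fell, beside calls for 6.03% of all genes tested. COX1, a subunit of cytochrome oxidase, was at 2039, 8456 and 7948 CPM in NCD and 38050.0, 33410.0 and 32260.0 CPM in HFD (log2 change 2.49, edgeR adjusted p = 0.0346), the highest mean level of any gene called higher. ATP8 overlaps ATP6, and parts of the mitochondrial genome have nuclear copies, so how reads were divided among these genes is uncertain. The sum of the 13 was 10600, 16600 and 20100 CPM of gene reads in the NCD libraries and 87100, 77200 and 69800 CPM in the HFD libraries. Of 5 tested nuclear-retained RNAs, Malat1, Neat1, Kcnq1ot1 and Snhg11 fell, and the list summed to 8720, 3330 and 4510 CPM in NCD and 2130, 1750 and 2490 CPM in HFD. The 3 NCD libraries, with the lower mitochondrial and in each case the higher nuclear-retained sum, also had the larger shares of reads outside annotated features. HFD+C2 replicate 1, where that share was 10.9%, had 17400 CPM of mitochondrial and 5890 CPM of nuclear-retained RNA, both within the range of the NCD livers, while the other 5 compound libraries had 48300 to 71000 CPM and 1520 to 1900 CPM. The part of read composition in these diet differences was not tested.

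**Figure D5:**
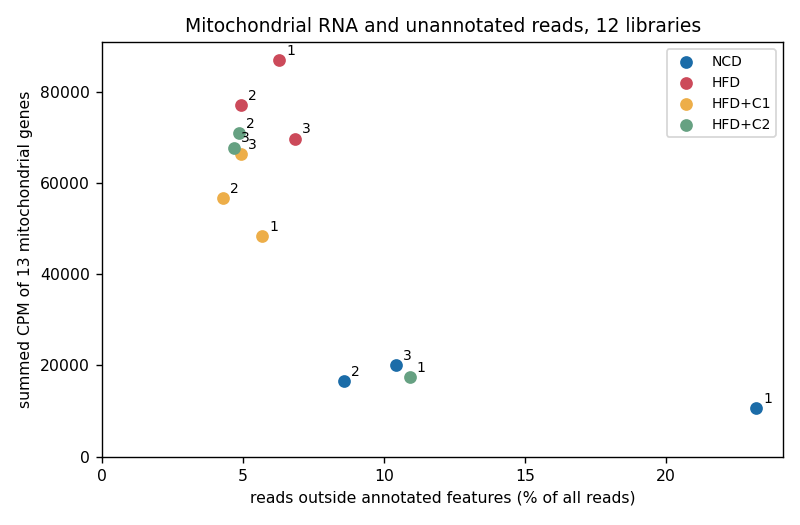
Summed CPM of 13 mitochondrially encoded genes against the percentage of reads outside annotated features in each of the 12 libraries, coloured by group and numbered by replicate. The 3 NCD libraries and HFD+C2 replicate 1 lie at 8.58% or more and at 20100 CPM or less, and the other 8 libraries at 6.84% or less and at 48300 CPM or more.

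The falls held many transcripts known only by locus numbers. Symbols starting with LOC or Gm were 31.9% of the genes called lower (152 of 477) against 5.29% of those called higher and 9.48% of all tested, and there was none among the 27 called in all 7 fits. NCD replicate 1 was the highest chow library in 83.0% of the genes called lower, against 41.9% of all genes tested and 11.4% of genes called higher. Genes called lower without that library had 23.6% of such symbols. Of 11 plasma and B cell markers 4 had enough reads to be tested, and Igk, the immunoglobulin kappa locus, was called lower, beside 6.03% of all genes tested called in either direction. The 11 summed to 503, 46.9 and 68.6 CPM in NCD and 4.08, 11.4 and 8.29 CPM in HFD. The muscle pump gene Atp2a1 had 12, 0 and 379 reads in NCD and was called lower with all libraries (edgeR adjusted p = 0.046). It was not called without NCD replicate 3, the library with muscle markers (edgeR adjusted p = 0.102), nor without any 1 HFD library (edgeR adjusted p of 0.163 to 0.211). Serpina3k, an abundant plasma protease inhibitor, was at 11520.0, 14340.0 and 11820.0 CPM in NCD and 4615, 7331 and 4739 CPM in HFD, the highest mean level of any gene called lower (log2 change -1.18, edgeR adjusted p = 0.0421). The parts of NCD replicate 1, of blood and immune cells and of muscle in the falls outside the 27 genes were not tested.

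Levels in the compound-treated mice on the same diet are set beside these for 4 of the 27 genes, picked after their values were seen, on a scale common to all 12 libraries and with no test, since no comparison with the compounds was made here. Cidea was at 16.5, 5.48 and 25.9 CPM with C1 and 32.8, 1.74 and 4.48 CPM with C2, against 29.3 to 73.8 CPM in HFD and 0.0817 to 0.631 CPM in NCD on that scale. Cfd was at 26.01, 10.5 and 27.9 CPM with C1 and 33.6, 25.9 and 11.6 CPM with C2. Sqle was at 24.6, 5.16 and 6.37 CPM with C1 and 4.57, 3.19 and 4.35 CPM with C2, against 53.0 to 73.7 CPM in NCD. These 18 values lay outside the chow range on the side of the HFD livers. Cyp7a1 was at 16.5, 11.0 and 17.4 CPM with C1 and 11.0, 31.5 and 13.7 CPM with C2, where HFD+C2 replicate 2 came within the chow range. It was shown because it was the 1 gene of the 27 with a compound library that was not beyond the chow range on the side of the HFD livers. All 6 compound libraries were beyond that range on the HFD side in 83.6% of the 836 called genes, and on 1 side or the other in 21.4% of all genes tested. The chow range is that of the NCD libraries that also chose the genes, so nothing is read from these shares.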

How the data were processed

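Total RNA from liver was made into libraries with the Advanta RNA-seq XT kit on the Fluidigm JUNO system, per the labels' protocols. The authors deposited read counts per gene, listed by symbol; the values are whole numbers whose totals differ between libraries and were taken as raw counts although the table is named as normalized. The submitters' processing notes name Trimmomatic 0.39, STAR 2.7, DESeq2 and mm10, with no roles; the annotation, strand setting and handling of multi-mapping reads are not given in the sources used here. The 4 rows that name no gene (31.9% to 58.2% of reads in the 6 libraries) entered neither library sizes nor tests.

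NCD (n = 3) and HFD (n = 3) were compared in edgeR 4.0.16 under R 4.3.3 by its quasi-likelihood test, without covariates, on genes averaging 10 or more counts. Libraries were scaled by TMM on the tested genes, and p-values were Benjamini-Hochberg adjusted over them, and 0.05 was the threshold of a call. Changes are HFD minus NCD on the log2 scale with standard errors. CPM printed per library are TMM-scaled, in the order of replicates 1, 2 and 3; sums over marker lists are scaled to all gene reads. Each of the 6 libraries was left out in turn on the same genes. The p-values measure the spread between these labelled replicates.

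Genes were named by rule: all that were called in all 7 fits, up to 4 called and 2 uncalled members of each of 27 function lists, and the most significant and most abundant calls. Further called list members are named as counts require, and Atp2a1, Igk, Ddx3y, Eif2s3y, Xist, Hsd3b5, Cyp4a12a, LOC118567332 and the genes called in 5 of 6 fits were named after their values were seen. The comparison, the gene lists and the 15 marker lists were chosen with earlier results of these data known, so no list count is independent support. A few list members are counted but not reported here by name. Alternatives were median-ratio and upper-quartile scaling, other filters, DESeq2 1.42.0, limma 3.58.1 on log2(CPM + 1), robust dispersions, a replicate block, a fit of all 12 libraries and libraries thinned to the shallowest.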

Additional observations from a re-analysis of the deposited data

How the results depend on the processing

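Against 836 diet calls (359 higher, 477 lower), median-ratio scaling, upper-quartile scaling and robust dispersions gave 757 to 842. Testing every gene with a read (35374 genes) gave 4493 calls (1742 diet calls higher, 2751 diet calls lower), DESeq2 2298 (933 and 1365) and a fit of all 12 libraries 2418 (diet calls higher 1023, diet calls lower 1395). Fewer came with a mean of at least 50 counts (524, of which 238 lower), limma (361; 218 and 143) and libraries thinned to the shallowest (247; 134 and 113). Leaving out 1 library gave 29 to 2163 calls, 17 to 1089 higher and 12 to 1074 lower. The labels do not say whether replicate numbers pair the samples. Correlations of same-numbered deviations were -0.0428, 0.158 and -0.0931, too few values to decide it. A replicate block gave 483 calls (192 higher, 291 lower), 430 of them among the 836.

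The number of genes called with each library left out was 27, and became 26 with median-ratio scaling (without Akr1c19), 21 with robust dispersions and 21 with the filter applied anew in each fit. The last 2 settings both lost 2010003K11Rik, Abcd2, Akr1c19, Ccl9, Cyp7a1 and Fabp2. The count was 1048 without a filter, 52 with a mean of at least 50 counts, 621 with DESeq2, 347 with the replicate block, 424 when NCD replicate 1 was left out of every fit and 434 when only NCD libraries were left out in turn; leaving out only HFD libraries gave 27. Each of these 7 counts included all 27 genes. The refiltering and the 2 restricted rotations were added after the data were seen. With all libraries present, each of the 27 was called in all 10 other settings. For called genes named under the rule and 5 uncalled ones, 818 of 908 values under the other settings and 355 of 546 with a library left out kept their direction and side of the threshold, and 0 reversed. The median log2 change of all genes was 0.16 without a filter and -0.11 with upper-quartile scaling, against -0.02. Apart from the smaller gene number, thinning and left-out libraries, which are the settings' own construction, the cause of these differences was not tested. The depth of NCD replicate 2, 4281210 gene reads, limits the precision of low chow levels.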
